A study of Mus musculus with 18 samples.

Results

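The genes described here are targets of p53, the tumour suppressor protein that answers DNA damage. They are 10 genes taken by name: Cdkn1a, Mdm2, Ccng1, Plk3, Perp, Tnfrsf10b, Bbc3, Pmaip1, Bax and Trp53inp1. Of these, 9 had a probe set annotated to that symbol alone, each of them exactly 1, among the 22180 genes of the array. Bax and the gene of p53 itself are not analysed here.

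p53 is a transcription factor that is stabilised by DNA damage and other stresses and then raises genes that arrest the cell cycle, start apoptosis or restrain p53 again. Mdm2, the ubiquitin ligase that degrades p53, is itself a target, which closes a negative feedback loop. Mouse embryonic stem cells hold abundant p53, and activation of p53 in them lowers the pluripotency factor Nanog.

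The series profiled the early response of differentiating mouse stem cells to thalidomide, a teratogenic drug whose cellular target is the E3 ligase component cereblon. C57BL/6 embryonic stem cells formed embryoid bodies, floating aggregates in which the cells leave pluripotency. Total RNA was hybridised to 18 Affymetrix arrays, 3 biological replicates in each of 6 groups. The exposed groups received 0.25 mM thalidomide from day 3 for 24, 48 or 72 h, and the control groups were collected at 24, 48 and 72 h. The treatment protocol gives the controls 0.25% DMSO, while the design text calls them unexposed and their source names count hours from the start of the embryoid bodies. Whole embryoid bodies were lysed, so each value is a mean over all of their cell types, and fewer cells of a type cannot be told apart from less RNA per cell.

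All signals below are deposited log2 values, on which a difference of 1 is a 2-fold change, and group values are means ± SD of 3 arrays. Array medians lay between 5.37 and 5.46. A gene was called changed at an adjusted p under 0.05 in limma, adjusted over all 22180 genes of a comparison, and changes are given ± SE. The titles of 12 arrays carry a re-analysis tag (all 9 controls and the 3 exposed arrays of 24 h) and those of the other 6 arrays do not, so at 48 h and 72 h tag and exposure cannot be told apart. Nanog, a marker of the labelled embryonic stem cells, had a change of -4.31 in control between 24 h and 72 h, so the late samples were differentiated by this marker. This was the lowest change among 10 pluripotency markers, of which 7 were called lower and 1 higher. The median change of the 10 was -0.47, and the highest was 1.03.

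Among these genes 3 carried a p53 decamer, the 10-base consensus that one p53 dimer contacts, in the promoter stretch given by the RefSeq table (mouse build GRCm38.p6). Searched were 8 stretches of 250 bases before a transcription start of 5 of the 9 genes (Cdkn1a, Mdm2, Ccng1, Plk3 and Bbc3), and 3 of the 8 held the decamer on either strand with no letter off. Of all 32851 promoter stretches in the table, 7.13% did. Perp, Tnfrsf10b, Pmaip1 and Trp53inp1 were not searched, so nothing is said here of their promoters. The stretches of Mdm2 (chr10:117710759-117711008, minus strand) and of the distal start of Cdkn1a (chr17:29090729-29090978, plus strand) are shown because these genes are the inhibitor of p53 and its best known arrest gene. Capitals mark the decamers, and each line runs 5′ to 3′ and ends at the base before the start.
Mdm2: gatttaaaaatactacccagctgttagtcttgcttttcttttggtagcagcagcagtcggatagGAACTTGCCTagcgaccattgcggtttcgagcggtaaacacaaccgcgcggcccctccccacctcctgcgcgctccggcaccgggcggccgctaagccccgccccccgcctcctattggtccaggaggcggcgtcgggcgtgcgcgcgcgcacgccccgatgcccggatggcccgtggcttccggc
Cdkn1a: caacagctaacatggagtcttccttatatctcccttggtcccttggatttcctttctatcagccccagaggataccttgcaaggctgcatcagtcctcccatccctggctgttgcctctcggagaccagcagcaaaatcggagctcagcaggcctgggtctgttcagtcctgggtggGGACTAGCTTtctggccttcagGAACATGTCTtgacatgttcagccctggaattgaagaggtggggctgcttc

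A p53 tetramer binds 2 decamers side by side, and such a pair with at most 1 of its 20 letters off was found in 25 promoter stretches of the table (0.0761%). Those of Cdkn1a (chr17:29090928-29090947, plus strand) and Ccng1 (chr11:40755462-40755481, minus strand) were among them. Here capitals mark only the decamer at the 5′ end of each pair, whether or not all its letters match. The letter off lies in that decamer in Ccng1 and in the lower-case decamer in Cdkn1a.
Cdkn1a: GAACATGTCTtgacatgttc
Ccng1: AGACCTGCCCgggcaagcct
The pair lay at positions -51 to -32 of the distal start of Cdkn1a, which is 2790 bases before its other start in the table, whose stretch held no decamer. In Ccng1 the pair lay at positions -195 to -176, counted from the start. These matches describe the sequence only, and binding of p53 was not measured.

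The direct targets did not rise together under thalidomide. At 24 h and 48 h the called genes among the 9 were all lower in exposed embryoid bodies: Cdkn1a and Perp at 24 h, and Cdkn1a, Perp and Tnfrsf10b at 48 h. Mdm2 and Bbc3 passed at no time. Of all genes, 5.43% were called lower and 1.42% higher at 24 h, and 4.23% lower and 1.85% higher at 48 h. At 72 h none of the 9 passed. At that time 5 of the 9 lay higher on every exposed array than on every control array, as did 7.27% of all genes. The plot of signals by array shows these patterns side by side.

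**Figure D1:**
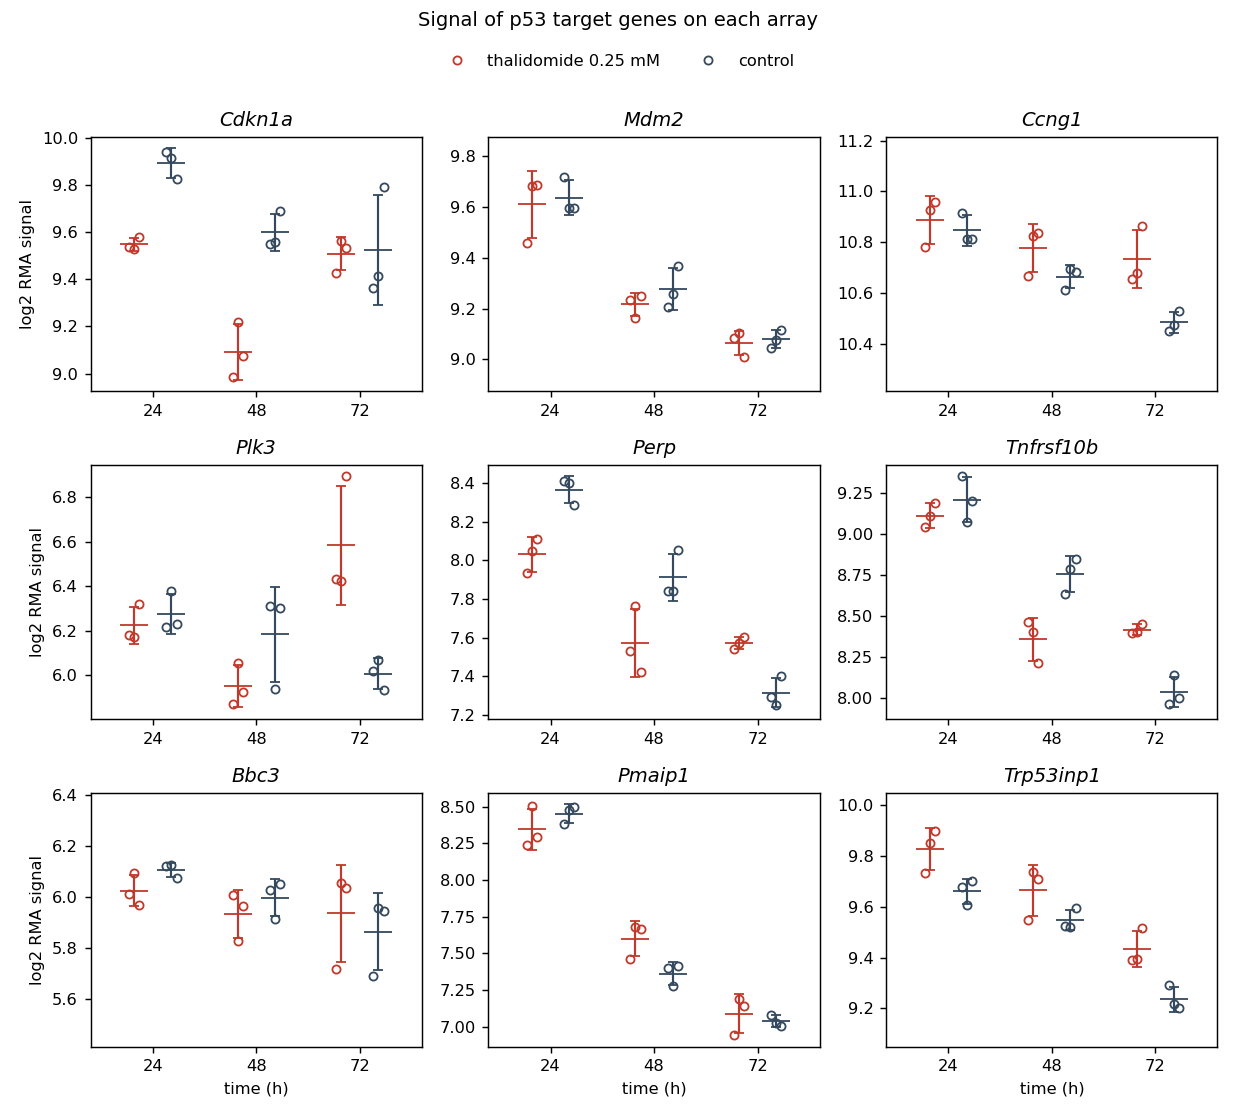
Signal (log2, y axis) of each of the 9 p53 target genes at 24, 48 and 72 h (x axis). Open circles are single arrays, thalidomide left of control at each time, and bars give the mean ± SD of 3 arrays. Cdkn1a was lower in exposed arrays at 24 h and 48 h, and Plk3 was at its highest on the exposed arrays of 72 h (6.42 to 6.90).

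Cdkn1a encodes p21, the inhibitor of cyclin-dependent kinases through which p53 arrests the cell cycle. At 24 h its signals were 9.54, 9.53 and 9.58 on thalidomide arrays, against 9.94, 9.91 and 9.82 on control arrays. Every exposed array lay below every control array, and the change was -0.34 ± 0.10 (SE; adjusted p = 0.0408), or 1.27-fold lower. At 48 h the signals were 8.98, 9.22 and 9.07 on thalidomide arrays, against 9.55, 9.56 and 9.69 on control arrays. The groups again did not overlap, the change was -0.51 ± 0.10 (SE; adjusted p = 0.00689), or 1.42-fold lower, and the exposed group of 48 h had the lowest mean of all 6 groups (9.09 ± 0.12). At 72 h the signals were 9.43, 9.56 and 9.53 on thalidomide arrays, against 9.36, 9.41 and 9.79 on control arrays. These overlapped, and the change was -0.02 ± 0.10 (SE; adjusted p = 0.985). Without replicate 3 of the 72 h controls, its highest array, the 72 h change of Cdkn1a was 0.12 and did not pass.

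The mean effect of thalidomide on Cdkn1a over the 3 times was -0.29 ± 0.06 (SE; adjusted p = 0.00357). It passed in 26 of 26 alternative settings, which are not independent checks. Of these, 18 left out 1 array each. The fit of only the groups compared uses all 18 arrays here and so repeats the reported fit. The 24 h call was weaker: it was lost when any 1 of the 6 arrays was left out (changes from -0.38 to -0.32) and after cyclic loess (-0.27). Ordered by mean, the exposed group of 48 h stood apart below, the controls of 24 h stood apart above (9.89 ± 0.06), and the other 4 groups did not differ beyond their spread.

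Mdm2 had signals of 9.46, 9.68 and 9.69 on thalidomide arrays at 24 h, against 9.72, 9.60 and 9.60 on control arrays. The groups overlapped at all 3 times, with changes of -0.03, -0.06 and -0.01 at 24, 48 and 72 h (SE 0.07 each; lowest adjusted p = 0.654). By mean its 6 groups fell into 3 steps, the pair of 72 h lowest, the pair of 48 h next and the pair of 24 h highest, and within each pair exposed and control arrays overlapped. Mdm2 was thus ordered by time, with no exposure difference beyond the spread.

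Ccng1, which encodes cyclin G1, a regulator of Mdm2 through a phosphatase, had no called change at a single time. At 72 h its signals were 10.66, 10.68 and 10.87 on thalidomide arrays, against 10.45, 10.48 and 10.53 on control arrays. The groups did not overlap, but the change of 0.25 ± 0.07 (SE) did not pass (adjusted p = 0.275). Its mean effect over the 3 times was 0.13 ± 0.04 (SE; adjusted p = 0.0487), and it passed with only 3 of 18 arrays left out in turn (changes from 0.11 to 0.15, adjusted p from 0.0293 to 0.0940).

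Plk3, a polo-like kinase that takes part in stress responses, had the largest change of the 9 at 72 h. Its signals there were 6.43, 6.42 and 6.90 on thalidomide arrays, against 6.02, 6.07 and 5.93 on control arrays. All exposed arrays lay above all controls, with replicate 3 of the exposed group the highest. The change was 0.58 ± 0.12 (SE), or 1.49-fold, and did not pass (adjusted p = 0.109). It passed without replicate 1 of the exposed group (0.65, adjusted p = 0.0469) and when dim genes, those under the median signal, were left out (adjusted p = 0.0435). At 24 h and 48 h the changes were -0.05 and -0.23, and the groups overlapped.

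Among the death genes, Perp encodes a membrane protein of desmosomes that p53 uses in apoptosis. At 24 h it had signals of 7.93, 8.05 and 8.11 on thalidomide arrays, against 8.41, 8.40 and 8.29 on control arrays. No exposed array reached a control array, and the change was -0.34 ± 0.09 (SE; adjusted p = 0.0298). At 48 h the signals were 7.53, 7.77 and 7.42 on thalidomide arrays, against 7.84, 7.84 and 8.05 on control arrays. Here too the groups stood apart, with a change of -0.34 ± 0.09 (SE; adjusted p = 0.0322). At 72 h the order was turned: Perp had 7.54, 7.57 and 7.60 on thalidomide arrays, against 7.29, 7.25 and 7.40 on control arrays. All exposed arrays were higher, and the change of 0.26 ± 0.09 (SE) did not pass (adjusted p = 0.342).

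The 24 h and 48 h calls of Perp each held with 1 of the 6 arrays left out and were lost with the other 5. The changes without 1 array ran from -0.38 to -0.29 at 24 h and from -0.43 to -0.26 at 48 h, all below 0. After cyclic loess they were -0.24 and -0.26, and neither passed.

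Tnfrsf10b encodes the mouse receptor for the death ligand TRAIL. At 24 h its signals were 9.04, 9.11 and 9.19 on thalidomide arrays and 9.35, 9.08 and 9.20 on control arrays, which overlapped (change -0.10 ± 0.09, SE). At 48 h they were 8.46, 8.40 and 8.21 on thalidomide arrays, against 8.63, 8.79 and 8.85 on control arrays. The groups stood apart, and Tnfrsf10b was 1.32-fold lower with thalidomide, a change of -0.40 ± 0.09 (SE; adjusted p = 0.0148). At 72 h they were 8.40, 8.40 and 8.45 on thalidomide arrays, against 7.966, 8.139 and 7.998 on control arrays. The exposed arrays were then all higher, and the change of 0.38 ± 0.09 (SE) did not pass (adjusted p = 0.130). The 48 h call was lost without replicate 2 (-0.38) or 3 (-0.35) of the controls or replicate 3 of the exposed group (-0.32).

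Pmaip1 and Bbc3 encode NOXA and PUMA, BH3-only proteins that release the mitochondrial path of apoptosis. Pmaip1 had signals of 7.46, 7.68 and 7.66 on thalidomide arrays at 48 h, against 7.40, 7.28 and 7.41 on control arrays. The exposed arrays lay above the controls, and the change of 0.24 ± 0.09 (SE) did not pass (adjusted p = 0.109). After cyclic loess it was 0.32 and passed narrowly (adjusted p = 0.04999). At 24 h and 72 h its groups overlapped (changes -0.11 and 0.05). Bbc3 lay between 5.69 and 6.12 on all 18 arrays, its 6 groups overlapped with their neighbours in the order of means, and its changes were -0.08, -0.07 and 0.07 at 24, 48 and 72 h.

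Trp53inp1 encodes a stress protein that acts on p53 and in autophagy. At 24 h it had 9.73, 9.85 and 9.90 on thalidomide arrays, against 9.68, 9.61 and 9.70 on control arrays. At 72 h it had 9.39, 9.40 and 9.52 on thalidomide arrays, against 9.29, 9.22 and 9.20 on control arrays. The groups stood apart at both times, but no single time passed (changes 0.17, 0.12 and 0.20 at 24, 48 and 72 h, adjusted p = 0.170, 0.323 and 0.359). The mean effect was 0.16 ± 0.04 (SE; adjusted p = 0.0152), and it passed in 26 of 26 alternative settings. Of these, 18 again left out 1 array each, and the fit of only the groups compared repeats the reported one. After cyclic loess the 24 h change was 0.24 and passed (adjusted p = 0.0482).

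Counted over the 9 genes, 2 were lower and 0 higher at 24 h, where 5.43% of all genes were called lower and 1.42% higher. At 48 h 3 were lower and 0 higher, against 4.23% of all genes lower and 1.85% higher. All 9 are among the 11090 genes at or above the median signal. In a fit of those genes alone, 1909 were called lower and 370 higher at 24 h. At 48 h that fit called 1570 lower and 380 higher. The 9 were not tested against either share. At 72 h 0 of the 9 were called in limma, where 0.00902% of all genes (2 genes) were called. Of the 9, 5 had an unadjusted p under 0.05 in limma at that time, against 9.12% of all genes. For the mean of the 3 times 3 of the 9 were called (Cdkn1a lower, Ccng1 and Trp53inp1 higher), against 13.0% of all genes.

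The median change of the 9 was -0.08 at 24 h, -0.07 at 48 h and 0.20 at 72 h, beside -0.01, 0.01 and 0.00 over all genes. Genes with thalidomide arrays wholly below control arrays numbered 2 of the 9 at 24 h (15.9% of all genes) and 3 of the 9 at 48 h (16.9% of all genes). At 72 h, 5 of the 9 had thalidomide arrays wholly above control arrays, against 7.27% of all genes: Plk3, Tnfrsf10b, Perp, Ccng1 and Trp53inp1. Of the 9, 7 belong to the 5545 brightest genes, whose median change was -0.08 at 24 h, -0.06 at 48 h and -0.02 at 72 h. After cyclic loess, which removes trends with brightness between arrays, neither gene called at 24 h passed, nor did Perp at 48 h. With only the 2 groups compared in the fit, none of the 9 passed at 24 h or 48 h.

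**Figure D2:**
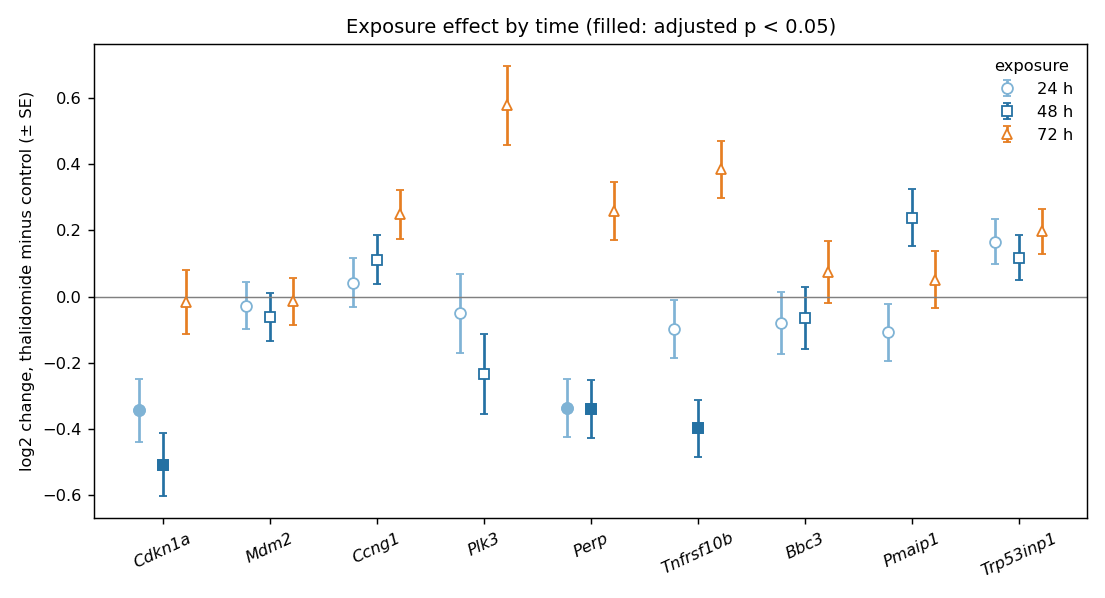
Change of signal (log2, thalidomide minus control, ± SE, y axis) of the 9 genes at 24, 48 and 72 h of exposure, with filled markers for an adjusted p under 0.05. Filled markers appear only below 0 and only at 24 h and 48 h, and at 72 h 7 of the 9 values lie above 0.

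Whether the effect itself differed between times was tested by the difference of the exposure effects. For Tnfrsf10b the effect of 72 h exceeded that of 48 h by 0.78 ± 0.12 (SE; adjusted p = 0.0301), and it was the only gene of the 9 called, where 0.0631% of all genes were called in that direction. For Perp the effect of 72 h exceeded that of 24 h by 0.59 ± 0.12 (SE; adjusted p = 0.0439), again the only one of the 9, against 0.383% of all genes. Each arises from values below 0 early and above 0 late. The same difference against 48 h was 0.60 for Perp and 0.81 for Plk3, and both missed the threshold (adjusted p = 0.0595 each). Cdkn1a had differences of 0.49 against 48 h (adjusted p = 0.122) and 0.33 against 24 h (adjusted p = 0.275).

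Between 24 h and 48 h, 0 of the 9 and 0 of all genes (0.0%) differed in effect by limma. An unadjusted p under 0.05 in limma was found for 2 of the 9 and for 1701 of all genes (7.67%). Both called differences were lost with only the groups compared in the fit (adjusted p = 0.0793 for Tnfrsf10b and 0.0573 for Perp), and that of Perp also after cyclic loess (0.52, adjusted p = 0.0841). The Tnfrsf10b call held with 4 of 12 arrays left out in turn (0.71 to 0.84), and the Perp call with 1 of 12 (0.54 to 0.64). At 48 h and 72 h the re-analysis tag also separates exposed from control arrays, and its part was not tested. In the difference called for Tnfrsf10b, the tag was the same at both times within each treatment. In that called for Perp, the exposed arrays carry the tag at 24 h and not at 72 h. Tag and change of effect cannot be told apart there.

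Markers of the cell types in embryoid bodies moved beside the 72 h values. The mean signal of 8 heart muscle markers was 6.92 to 8.04 on thalidomide arrays of 72 h, against 8.52 to 8.56 on control arrays, with a median change of -1.18 and 0 of 8 called. The mean of 7 neural markers was 6.60 to 7.21 on thalidomide arrays, against 5.94 to 6.45 on control arrays, with a median change of 0.49 and 0 of 7 called. The mean of 7 fibroblast markers was 6.11 to 6.84 on thalidomide arrays, against 6.92 to 7.32 on control arrays. In control 6 of these 7 rose and 1 fell between 24 h and 72 h (median change 1.21), so they are not read here as feeder cell content. The mean of 8 endothelium and blood markers was 5.66 to 6.13 on thalidomide arrays, against 6.19 to 6.27 on control arrays. The 72 h groups thus did not overlap in any of these 4 lists, whereas the 10 pluripotency markers had means of 5.97 to 6.31 with thalidomide and 5.89 to 6.07 in control, which overlapped. The part of these cell types in the 72 h values of Plk3, Tnfrsf10b and Perp was not tested. Beside the 24 h calls of Cdkn1a and Perp, the mean of 7 primitive streak markers was 7.74 to 7.82 on thalidomide arrays, against 8.07 to 8.12 on control arrays. That of the pluripotency markers was 6.94 to 7.04 on thalidomide arrays, against 7.08 to 7.21 on control arrays. Their median change was 0.05, above 0, with single changes from -0.75 to 0.18, so the lower mean does not describe the list as a whole. The mean of 9 extraembryonic endoderm markers was 8.22 to 8.32 on thalidomide arrays, against 8.11 to 8.20 on control arrays. The groups did not overlap in these 3 lists, in which 1 streak and 1 pluripotency marker fell and 1 endoderm marker rose.

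Beside the 48 h calls of Cdkn1a, Perp and Tnfrsf10b, the mean of the fibroblast markers was 5.97 to 6.05 on thalidomide arrays, against 5.76 to 5.93 on control arrays, and 2 of 7 rose. That of the endothelium and blood markers was 5.48 to 5.59 on thalidomide arrays, against 5.35 to 5.47 on control arrays, with 0 of 8 called. That of the neural markers was 6.10 to 6.14 on thalidomide arrays, against 6.15 to 6.35 on control arrays, and 1 of 7 fell. Their median change was 0.10, above 0, with single changes from -0.77 to 0.25, so the lower mean does not describe the list as a whole. The groups stood apart in these 3 lists and overlapped in the other 4, among which 1 heart muscle marker fell. The part of these cells in the 24 h and 48 h calls was not tested.

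The design also gives the course over time without the drug. In control embryoid bodies 7 of the 9 were lower at 72 h than at 24 h and 0 were higher, where 14.3% of all genes were lower and 13.1% higher. The median change of the 9 was -0.42, beside -0.04 over all genes. All 9 had 72 h arrays wholly below 24 h arrays, which 23.3% of all genes had.

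Over the control course 3 of the 4 death genes had the largest changes of the 9. Pmaip1 had means of 8.45 ± 0.06, 7.36 ± 0.08 and 7.04 ± 0.04 at 24, 48 and 72 h, and was 2.66-fold lower at 72 h than at 24 h (change -1.41 ± 0.09, SE). Tnfrsf10b was 2.26-fold lower (-1.18 ± 0.09, SE) and Perp 2.07-fold lower (-1.05 ± 0.09, SE). The arrest and feedback genes had smaller changes: Mdm2 had a change of -0.56, Cdkn1a of -0.37 (adjusted p = 0.00799) and Ccng1 of -0.36 (adjusted p = 0.00137). Trp53inp1 had one of -0.42. Plk3 (-0.27, adjusted p = 0.111) and Bbc3 (-0.24, adjusted p = 0.0637) did not pass.

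In the thalidomide course the 24 h arrays carry the re-analysis tag and the 48 h and 72 h arrays do not, so tag and time cannot be told apart in changes from 24 h. Between 24 h and 72 h, 5 of the 9 fell and 1 rose, where 10.6% of all genes were lower and 14.4% higher. Pmaip1 (-1.25), Mdm2 (-0.54) and Trp53inp1 (-0.39) fell, as did Tnfrsf10b (-0.70) and Perp (-0.46). Cdkn1a had a change of -0.04 (adjusted p = 0.799). Plk3 rose by 0.36 ± 0.12 (SE; adjusted p = 0.0367), a call that was lost without replicate 3 of 72 h (0.20) and without replicate 1 (0.34) or 2 (0.33) of 24 h.

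**Figure D3:**
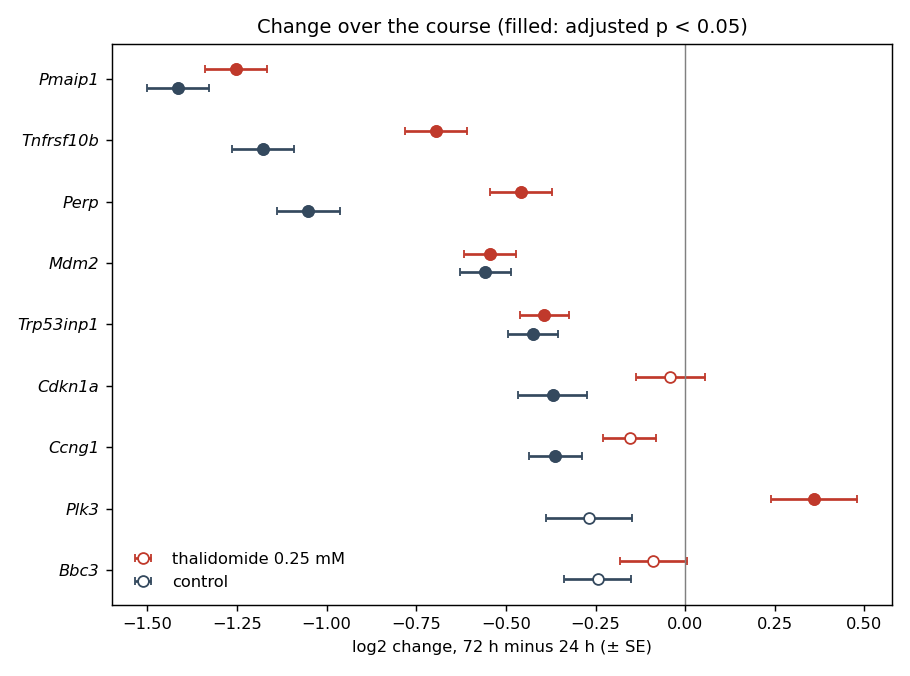
Change of signal between 24 h and 72 h (log2, 72 h minus 24 h, ± SE, x axis) of each gene in thalidomide-exposed and control embryoid bodies, filled where the adjusted p was under 0.05. Pmaip1 fell most in both (-1.25 with thalidomide and -1.41 in control), and Plk3 alone was above 0, with thalidomide.

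The steps between times were also compared within each course. From 24 h to 48 h, 5 of the 9 fell with thalidomide (4.36% of all genes were lower) and 4 fell in control (6.7% of all genes were lower). Pmaip1, Perp, Tnfrsf10b and Mdm2 fell in both. Cdkn1a fell by 0.46 on the log2 scale with thalidomide (adjusted p = 0.00509), while its control change of -0.29 missed (adjusted p = 0.0531), and the difference of these changes, -0.16, did not pass (adjusted p = 0.840). From 48 h to 72 h, 2 of the 9 rose and 2 fell with thalidomide (6.42% of all genes were higher and 3.76% lower), and 4 fell in control (2.9% of all genes were lower).

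Of the 9, the difference between the courses passed in the later step for Tnfrsf10b only, as given above. In that step Plk3 rose by 0.63 ± 0.12 (SE; adjusted p = 0.00326) and Cdkn1a by 0.42 ± 0.10 (SE; adjusted p = 0.0117) with thalidomide. Pmaip1 fell further, with changes of -0.51 with thalidomide and -0.32 in control. Tnfrsf10b had a change of 0.06 with thalidomide and fell by 0.72 in control, and Perp had a change of 0.00 with thalidomide and fell by 0.60 in control. Trp53inp1 fell in both (-0.23 with thalidomide and -0.31 in control). The control call of Pmaip1 in this step held with 1 of 6 arrays left out (changes from -0.37 to -0.30). The thalidomide call of Trp53inp1 held with 2 of 6 (-0.29 to -0.20), and its control call was lost without replicate 3 of 48 h or of 72 h (-0.29 each).

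Over all 6 groups the highest and lowest means differed by 1.41 for Pmaip1, 1.18 for Tnfrsf10b, 1.05 for Perp, 0.80 for Cdkn1a, 0.63 for Plk3, 0.59 for Trp53inp1, 0.57 for Mdm2, 0.40 for Ccng1 and 0.24 for Bbc3. The 72 h controls had the lowest mean, apart from the next group, for Perp, Tnfrsf10b, Ccng1 and Trp53inp1. For Plk3 only the exposed group of 72 h stood apart, above the other 5. Pmaip1 was lowest in the 72 h pair, whose arrays overlapped, and then stood in separate steps for control at 48 h, thalidomide at 48 h and the 24 h pair.

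For the 3 genes that varied by 1 or more between groups, the genes with the most similar profile over the 18 arrays were sought among the 11081 brighter genes. Perp was most like Gtse1 (Pearson r = 0.96) and Mcm10 (0.95). Tnfrsf10b was most like Rhbdf2 and Klf5 (0.97 each). Pmaip1 was most like Nol9 and Wnt3 (0.98 each). The 18 arrays share times and exposure, so these values describe likeness only.

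Lists of related genes are read against the same shares of all genes, 5.43% lower and 1.42% higher at 24 h and 4.23% lower and 1.85% higher at 48 h. No list was tested against these shares. Of 15 measured regulators of p53, such as its kinases and ligases, 2 fell at 24 h, with a median of -0.10 over the list. Chek1, a checkpoint kinase, had signals of 7.81, 7.92 and 8.05 on thalidomide arrays, against 8.20, 8.17 and 8.23 on control arrays, and fell by 0.27 on the log2 scale (adjusted p = 0.0220). Rchy1, a ubiquitin ligase for p53, fell by 0.29 (adjusted p = 0.0366). No regulator was called at 48 h or 72 h. Mdm4, the partner of Mdm2 that holds p53 inactive, had changes of 0.09, 0.07 and -0.08 at 24, 48 and 72 h, and none passed (lowest adjusted p = 0.657).

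Of 12 other targets in cell cycle and feedback, 0 were called at 24, 48 or 72 h. Of 11 other death targets, 1 rose at 24 h and 1 at 48 h, in both cases Apaf1, the scaffold of the apoptosome. Apaf1 had 8.84, 8.90 and 9.02 on thalidomide arrays at 24 h, against 8.66, 8.59 and 8.61 on control arrays. Its arrays did not overlap, and it rose by 0.30 at 24 h (adjusted p = 0.0162) and by 0.25 at 48 h (adjusted p = 0.0428). Aen, a nuclease of apoptosis, was higher in the mean of the 3 times (0.14, adjusted p = 0.0435).

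Of 17 other targets in repair and metabolism, 2 fell at 24 h and 1 at 48 h. Gpx1, a glutathione peroxidase, had 9.81, 9.86 and 9.85 on thalidomide arrays at 24 h, against 10.07, 10.09 and 10.16 on control arrays. It stood wholly lower, with changes of -0.26 at 24 h (adjusted p = 0.0183) and -0.24 at 48 h (adjusted p = 0.0331). Phlda3, an inhibitor of AKT, had a change of -0.31 at 24 h (adjusted p = 0.0359). Triap1, an inhibitor of apoptosis, was lower in the mean of the 3 times (-0.21, adjusted p = 0.0212).

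Of 13 other BCL2 family genes, 1 fell at 24 h and none was called at 48 h or 72 h. Bak1, a pore-forming death effector, had 7.68, 7.50 and 7.52 on thalidomide arrays at 24 h, against 7.83, 7.88 and 7.88 on control arrays. It lay wholly lower, with a change of -0.29 (adjusted p = 0.0282). Bcl2, the survival protein that gave the family its name, was lower in the mean of the 3 times (-0.22, adjusted p = 0.0190). Of 15 CDK inhibitors and partners of p21, 0 were called at any single time. In the mean of the 3 times Cdkn2d (-0.17), Cdk2 (-0.16) and Cdkn1c (-0.32) were lower, the last being the p57 inhibitor of cyclin-dependent kinases.

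**Figure D4:**
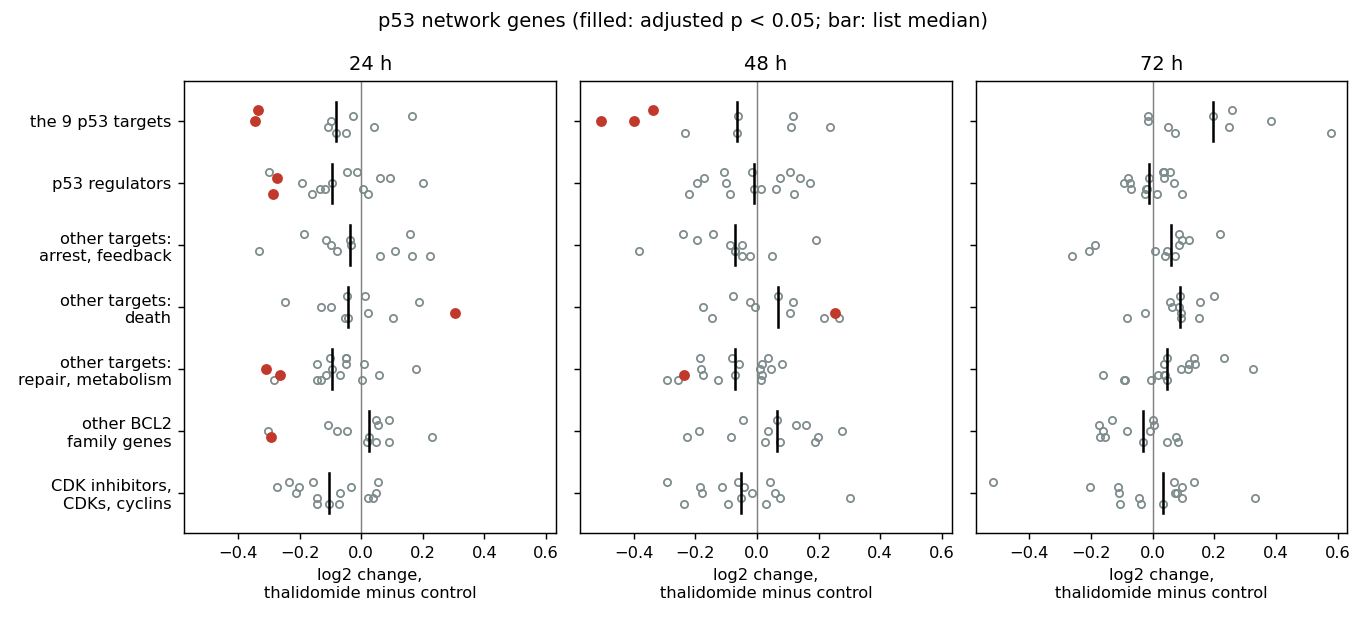
Change of signal (log2, thalidomide minus control, x axis) of the 9 p53 targets and of 6 lists of related genes at 24, 48 and 72 h. Each circle is 1 gene, filled where the adjusted p was under 0.05, and the bar is the list median, which for the 9 targets was -0.08, -0.07 and 0.20.

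Over the control course 14.3% of all genes were lower and 13.1% higher. Between 24 h and 72 h 9 of the 11 death targets and 11 of the 17 repair and metabolism targets fell, and none rose. Of the 12 cell cycle and feedback targets 6 fell and 2 rose. The list medians were -0.37 for death, -0.37 for repair and metabolism and -0.24 for cell cycle and feedback, beside -0.04 over all genes. Of the 13 BCL2 family genes 4 rose and 1 fell, with a median of -0.02. Of the 15 regulators of p53, 2 rose and 6 fell (median -0.12), and of the 15 CDK inhibitors and partners 6 rose and 4 fell (median 0.14). These lists were not tested against each other.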

How the data were processed

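Embryoid bodies of 6 groups (thalidomide or control at 24, 48 and 72 h) were measured on 18 arrays, 3 per group. The deposited values are log2 signals. The submitters' processing notes name RMA and Expression Console 1.3. RMA includes quantile normalization, so a shift of most transcripts would not be seen. No genome build is given in the sources used here. Of 41345 probe sets, 23521 had a single symbol in the platform annotation, 1814 had several and were named after none, and 16010 are not named here. The brightest probe set stood for a gene, which left 22180 genes. Sequences are from RefSeq tables of GRCm38.p6, and promoters of 5 of the 9 genes were searched.

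limma 3.58.1 in R 4.3.3 fitted 1 mean per group over all 18 arrays, with eBayes without trend or robust options (12 residual and 4.35 prior degrees of freedom). All p-values are two-sided with Benjamini-Hochberg adjustment over all genes, at a threshold of 0.05. The code was tested on simulated data. Genes outside the 10 were named by rule: Mdm4, at most 3 called genes per list and exposure contrast, and the 2 genes of most similar profile for genes varying by 1 or more. Nanog was named apart from this rule, as a marker of the stem cells. The genes, lists and tests were chosen with earlier results of these data known. Alternatives were the mean of probe sets, all probe sets, cyclic loess, a brightness filter, trend and robust options, only the groups compared, array weights, a replicate block and leaving out each array. The number of arrays limits the precision.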

Additional observations from a re-analysis of the deposited data

Results flagged for a closer look

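Tnfrsf10b was singled out because its exposure effect differed between times by the test of the difference: the effect of 72 h minus that of 48 h was 0.78 on the log2 scale (adjusted p = 0.0301 in limma, from 0.000641 to 0.0827 over the alternatives). All 3 exposed arrays lay below the controls at 48 h and above them at 72 h.

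Perp was singled out in the same way, with the effect of 72 h minus that of 24 h at 0.59 (adjusted p = 0.0439 in limma, from 0.00704 to 0.109 over the alternatives). All 3 exposed arrays lay below the controls at 24 h and above them at 72 h.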

How the results depend on the processing

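Leaving out 1 array at a time gave 0 to 1 called genes of the 9 at 24 h (2 with all arrays), 1 to 3 at 48 h (3), 0 to 1 at 72 h (0), 0 to 2 for the effect of 72 h against 48 h (1), 0 to 1 for 72 h against 24 h (1), 2 to 4 for control from 48 h to 72 h (4). With only the groups compared in the fit the count was 0 at 24 h, at 48 h and for both differences of effects. With all probe sets tested it was 0 at 24 h and for 72 h against 24 h. After cyclic loess it was 1 at 24 h (Trp53inp1, higher) and 0 for 72 h against 24 h. Without genes under the median signal it was 1 at 72 h, 4 for 72 h against 48 h and 3 for 72 h against 24 h, and with trend and robust options 2, 4 and 3. Array weights gave 2 for 72 h against 48 h. The fit with a replicate block gave 0 for both differences of effects (adjusted p = 0.0594 for Tnfrsf10b and 0.0631 for Perp) and moved no other count of the 9 by over 1.5 times. Same-numbered arrays did not deviate together (r from -0.16 to 0.13 over 45 pairs), so no pairing by number was seen. The labels do not state whether the numbers pair the samples, and a weak pairing could be missed. The causes were not tested. No alternative moved the counts for the mean of the 3 times or the courses from 24 h to 72 h by over 1.5 times. Of 1908 recomputed changes of single genes 45 had the other sign, none of them of a called change. Many of the 1908 could not differ from the reported change. These are the mean of probe sets, all probe sets, the brightness filter, trend and robust options, only the groups compared and the replicate block. Only cyclic loess, array weights and leaving out an array could alter a sign. Over all genes 79.2% of calls were lower at 24 h and 69.6% at 48 h, against 57.3% and 59.4% after cyclic loess (80.5% at 48 h without dim genes), and in the mean of the 3 times 69.9%, against 57.6% after cyclic loess and 80.4% without dim genes. With only the groups compared 121 and 163 genes were called at 24 h and 48 h, against 1521 and 1349. At 72 h 2 genes were called, but 38 without dim genes and 30 with trend and robust options. For 72 h against 48 h these counts were 21, 365 and 350, and for 72 h against 24 h 110, 640 and 532, with 2 and 5 for only the groups compared. Alternatives for the steps from 24 h to 48 h and from 48 h to 72 h were chosen after seeing the data. Background values of the probe sets were not used, so no gene was tested for presence.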
